A study of Sus scrofa with 12 samples.

Results

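The net change in transcript abundance over postnatal growth was measured by setting 3 arrays of Meishan pigs 120 days old against 3 arrays of Meishan pigs 3 days old. Meishan is a pig breed from China, and the tissue was the longissimus dorsi, a long muscle that runs beside the spine. These 6 of the 12 arrays of the series were chosen by the age in their titles, and every probe set outside the array's own controls entered the comparison. All the pigs were Meishan and untreated apart from standard feeding, and each array held RNA of 1 sample of frozen whole muscle. The other 6 arrays, 3 from fetuses at 65 days post coitus (dpc) and 3 from pigs 60 days old, supplied part of the estimate of spread and are quoted as description. The labels call the samples biological replicates and treat all fetuses from the same sow as 1 animal. Sex, postnatal litter and the day of hybridization are not in the labels, so litter or day and age cannot be told apart.

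Skeletal muscle goes on maturing after birth. Fibres are no longer added in number but thicken by adding protein and nuclei, embryonic and cardiac-type isoforms of the contractile machinery give way to adult ones, and fibres settle into fast glycolytic and slow oxidative types. The newborn depends on fat-rich milk, and the growing animal on a starch-rich diet, while the imprinted growth genes of the fetus are known to be switched down in many tissues. The longissimus is a mostly fast, glycolytic muscle in the grown pig.

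Defining markers of fast skeletal muscle, CKM, MYLPF, TNNC2, TNNI2 and TNNT3, lay between 7031 and 11069 intensity units on the 6 arrays, at or above the 99.9th percentile of each array. ACTA1 and MB were not measured here. Arrays correlated with r from 0.932 to 0.979 within 3 days, 0.969 to 0.985 within 120 days and 0.911 to 0.942 between them, across probe sets, which are not independent replicates. The third array of 3 days stood apart, since 38 kept probe sets were over 4-fold above and 21 over 4-fold below both other arrays of its age, against at most 3 above and 0 below for those 2. The genes furthest above were FBXO32, a muscle ubiquitin ligase, at 26.4, 61.2 and 2378, the acute-phase protein gene HP at 66.7, 44.2 and 1755, PTX3 at 97.3, 80.2 and 1983, and GADD45A at 177, 149 and 2814. The third array of 120 days had 7 above and 5 below. The Y-linked gene EIF1AY read 13.1, 12.4 and 451 at 3 days, 10.4, 15.6 and 636 at 60 days, and 13.4, 17.2 and 629 at 120 days, so the third array was the high one at each age and ages were alike in this respect. In control probe sets the 3-prime over 5-prime ratio of actin was 3.61 ± 1.06 at 3 days and 5.08 ± 0.896 at 120 days (SD, n = 3, exact two-sided permutation p = 0.200), and that of EF1A 1.0 ± 0.0826 and 1.12 ± 0.0161 (exact p = 0.10, the smallest that 3 against 3 allow, 0.300 after Benjamini-Hochberg adjustment over 6 measures). That of GAPDH went the other way, from 1.01 ± 0.0207 to 0.940 ± 0.0210, also without overlap and with the same exact p.

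Of 16166 kept probe sets, 714 (4.42%) changed between 3 and 120 days at an adjusted p under 0.05, with 371 higher at 120 days (2.29%) and 343 lower (2.12%). The test was limma's moderated test on log2(intensity + 21), adjusted by Benjamini-Hochberg over all kept probe sets, and at an unadjusted p under 0.05 there were 3143 (19.4%). Changes of at least 2-fold made up 337 of the calls (2.08% of kept probe sets), 175 higher and 162 lower, and at least 4-fold changes 20 and 27. All 714 had 3 arrays of 1 age above the 3 of the other, as did 5118 probe sets in all (31.7%). Over 5765 named genes, each read from its brightest probe set, 276 changed (4.79%), 115 upward (1.99%) and 161 downward (2.79%), and the median log2 change was -0.03, with the middle 80% between -0.55 and 0.47. In whole muscle, fewer cells of a type and less RNA per cell cannot be told apart.

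The balance of rises and falls depends on the scale. With the arrays centred on the spiked hybridization controls, the median of all probe sets moved to -0.16 and the calls to 187 higher and 582 lower, so 24.3% of calls were rises in place of 52.0%. The changes below are relative to the deposited scaling. The count also fell without 1 array, to 184 and 220 without replicates 1 and 2 of 120 days, 432 without its replicate 3, 316 and 312 without replicates 1 and 2 of 3 days, and 484 without its replicate 3. Of the 47 called genes that the naming rule picked, 20 kept their call without any 1 of the 12 arrays. Leaving out an array could not reverse a direction, since the ages did not overlap for any called probe set.

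**Figure D1:**
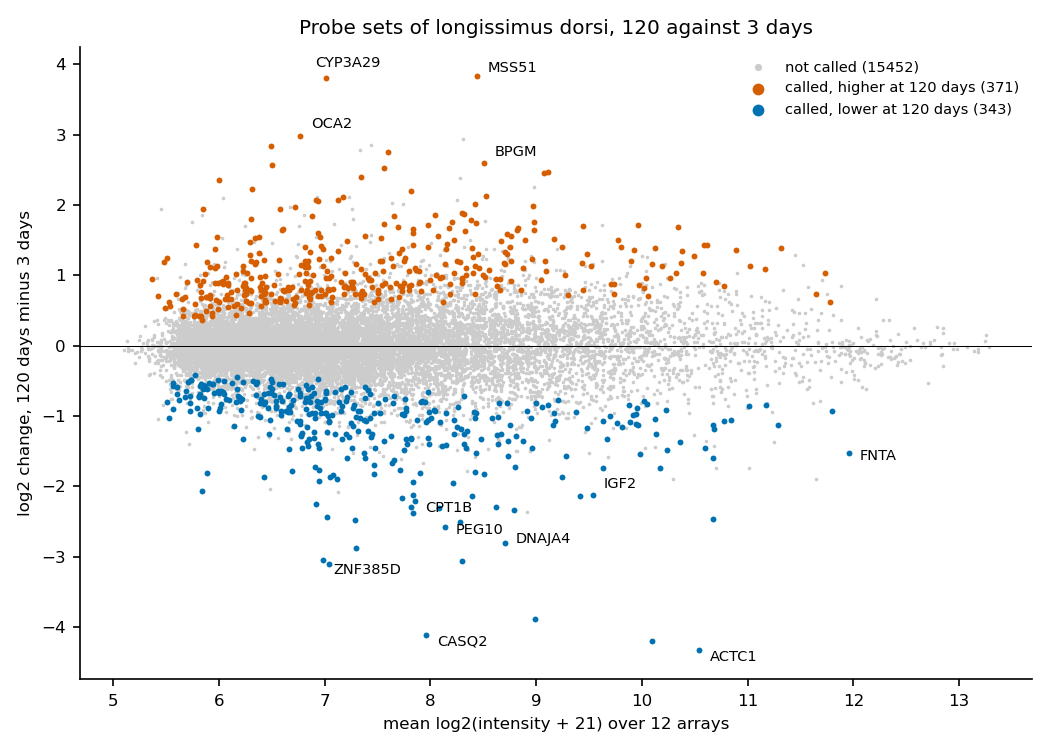
Each point is 1 of 16166 kept probe sets, with its mean log2(intensity + 21) over 12 arrays on the x axis and its log2 change from 3 to 120 days on the y axis. Orange marks the 371 called higher and blue the 343 called lower; ACTC1 and CASQ2 sit at -4.33 and -4.11, and MSS51 and CYP3A29 at 3.84 and 3.81.

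The largest falls among the genes named by rule were in 2 cardiac-type genes, one of the contractile apparatus and one of calcium storage. ACTC1, the cardiac alpha-actin used in immature skeletal fibres, read 6910.1, 5539.8 and 2901 at 3 days and 198, 224 and 235 at 120 days. All 120-day arrays were therefore far under the lowest 3-day array. The means differed 23.4-fold (5117 ± 2038 and 219 ± 18.7, SD, n = 3), and the log2 change was -4.33 (SE 0.40, limma adjusted p = 4.62e-04). CASQ2, the cardiac and slow-fibre calcium store protein of the sarcoplasmic reticulum, read 1232, 874 and 634 at 3 days and 37.1, 36.0 and 21.8 at 120 days (log2 change -4.11, SE 0.40, limma adjusted p = 4.62e-04). The 120-day values of CASQ2 lie under the array medians (49.1 to 52.6), so no fold is given. A second probe set of CASQ2 was also lower, with a log2 change of -2.87. Both calls held without any 1 array.

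The other cardiac and embryonic isoforms measured did not pass the test. In the list of 9 measured fetal and cardiac contractile genes, ACTC1 alone passed the test (11.1%, where 4.79% of all genes passed). A negative log2 change was seen in 8, and the list median was -0.34. MYL4, the embryonic and atrial light chain, was already low at 3 days, at 58.0, 75.2 and 42.1, and read 53.3, 44.4 and 61.8 at 120 days. ANKRD1, a stretch-responsive titin-binding protein, read 3243, 4111 and 7646 and then 662, 1581 and 2508, without overlap, but its log2 change of -1.74 (SE 0.62) had an adjusted p of 0.142.

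The adult sarcomere genes measured did not pass the test between these ages. Of 8 fast-fibre genes (median log2 change 0.08) and 9 slow-fibre genes (median -0.07), 0 passed the limma test in either direction. With 4.79% of all genes called, 0 calls in lists this short say little about sarcomere genes. Those medians are within the -0.16 that the other scaling moves all probe sets. MYH2, a fast myosin heavy chain, read 7060.2, 5852 and 4571 at 3 days and 7922, 7847 and 7949 at 120 days (log2 change 0.46, SE 0.18, adjusted p = 0.173). MYH7, the slow myosin heavy chain, averaged 3958 ± 406 and 3781 ± 536, and TNNT1 and TNNT3, the slow and fast troponin T, had log2 changes of 0.04 and 0.05 (SE 0.14 and 0.16). TMOD4, which caps thin filaments, read 2618, 2557 and 1889 and then 4389, 4135 and 4167, with an adjusted p of 0.0621 (log2 change 0.85).

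In calcium handling, CASQ2 was the 1 called of 8 genes (12.5%, where 4.79% of all genes were called), against a list median of 0.26. RYR1, the calcium release channel, read 1042, 1116 and 1092 and then 1900.3, 1840.1 and 1165, and PLN, an inhibitor of the calcium pump, read 467, 591 and 539 and then 587, 1152 and 829. Neither passed the test (adjusted p = 0.238 and 0.253).

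The 12 largest rises were in genes of varied function. MSS51, a muscle-enriched gene linked to mitochondria, read 177, 95.8 and 53.6 at 3 days and 1783, 1569 and 1753 at 120 days, 15.6-fold in the means (log2 change 3.84, SE 0.50, adjusted p = 0.00250). CYP3A29, a cytochrome P450, read 38.3, 13.5 and 11.9 and then 473, 293 and 1166, and OCA2, a melanosome transporter, read 13.8, 10.3 and 8.61 and then 289, 205 and 212. As the naming rule required, every 120-day array of these 3 genes was above every 3-day array, while CYP3A29 spread nearly 4-fold within 120 days.

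BPGM, which makes 2,3-bisphosphoglycerate, read 217, 197 and 72.9 at 3 days and 983, 1038 and 1008 at 120 days (log2 change 2.60, SE 0.48, adjusted p = 0.0118). ME1, the cytosolic malic enzyme that supplies NADPH for fat synthesis, read 29.2, 50.2 and 81.2 and then 438, 239 and 230.3 (log2 change 2.12, adjusted p = 0.00903), and its second probe set rose by 1.94. ALDH1A1, a retinaldehyde dehydrogenase, went from 48.1 ± 9.75 to 278 ± 95.4, and ADHFE1, a mitochondrial hydroxyacid transhydrogenase, from 46.5 ± 19.7 to 267 ± 94.7 (SD, n = 3, log2 change 2.07 in both). OPTN, an autophagy receptor, rose from 238 ± 30.9 to 1062 ± 452. These 5 genes had separate ranges at the 2 ages, as the naming rule required.

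SLPI, a secreted protease inhibitor, read 134, 77.4 and 54.2 and then 1221, 766 and 334, and C4BPA, a complement regulator, read 184, 58.9 and 47.1 and then 1118, 231 and 731. Their within-age spreads were wide, and log2 changes were 2.75 (SE 0.63) and 2.53 (SE 0.57), with adjusted p of 0.0316 and 0.0273. RSAD2 and OAS1 complete the 12 and are described with the interferon genes. The calls on MSS51, OCA2, RSAD2, ALDH1A1, ADHFE1 and OPTN held without any 1 array. Without 120-day replicate 1 the adjusted p was 0.0577 for CYP3A29, 0.146 for SLPI, 0.0548 for BPGM, 0.127 for C4BPA and 0.0532 for ME1. Calls were also lost for CYP3A29 without 3-day replicate 2 (0.0533) or 120-day replicate 3 (0.0517), for BPGM without 120-day replicate 2 (0.0526), for SLPI without 120-day replicate 2 or any 3-day array (0.0562 to 0.119), and for C4BPA without 3-day replicates 2 or 3 or 120-day replicate 3 (0.0821 to 0.10).

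**Figure D2:**
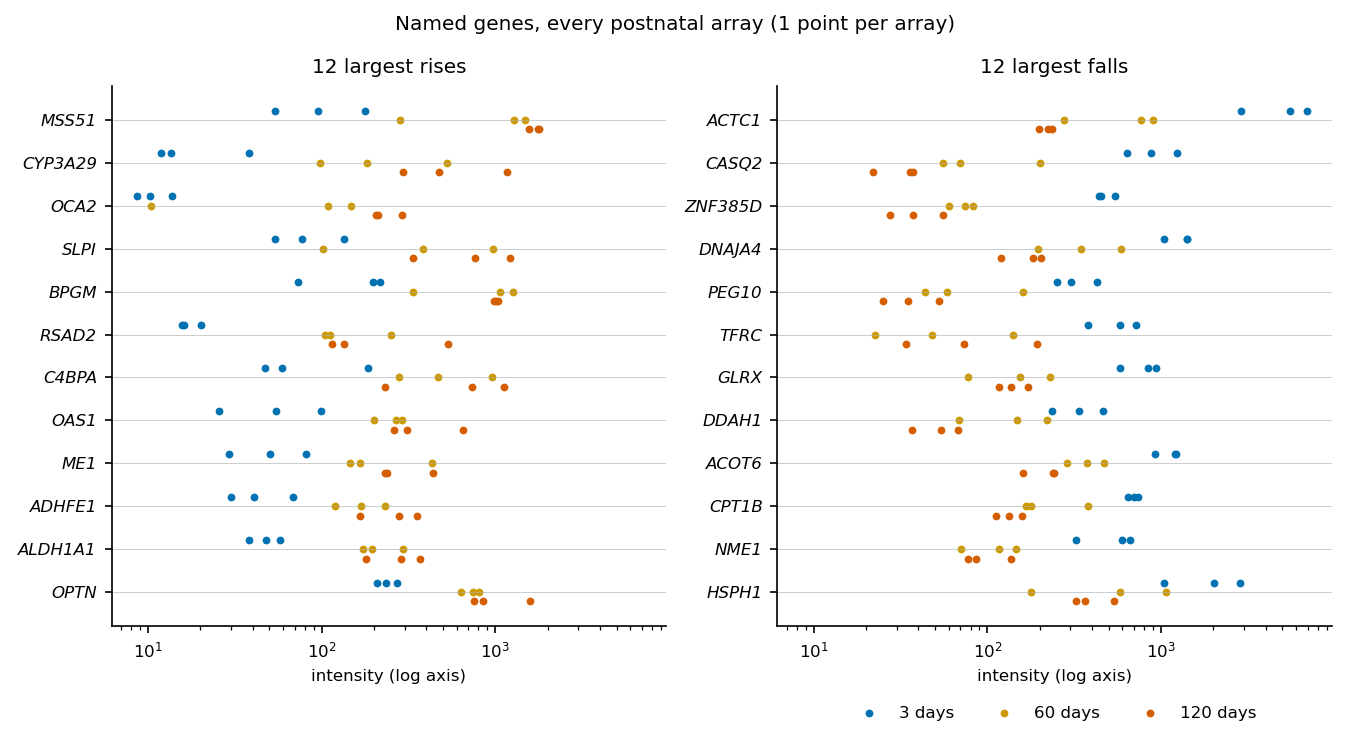
Intensity on a log axis for the 12 largest called rises (left) and falls (right), with 1 point per array in blue for 3 days, ochre for 60 days and orange for 120 days. Blue and orange do not overlap in any row, as the rule for naming them required, while ochre points vary, with MSS51, BPGM, OCA2 and SLPI each having 1 low array at 60 days.

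Among the other large falls, ZNF385D, a zinc-finger gene, had the smallest adjusted p of all probe sets (4.04e-05). It read 543, 441 and 451 at 3 days and 27.5, 37.2 and 55.6 at 120 days (log2 change -3.05, SE 0.20), but its second probe set gave -0.03. DNAJA4, a co-chaperone of HSP70, read 1418, 1043 and 1417 and then 120.1, 204 and 184 (log2 change -2.80), and its second probe set gave 0.07. For both genes only the probe set that stands for the gene moved, and which transcripts each reads was not tested.

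FNTA, the alpha subunit of the enzymes that attach farnesyl and geranylgeranyl groups, read 5925, 4882 and 5966 at 3 days, 4270.3, 4273 and 4989.7 at 60 days and 1852, 2309 and 1630.0 at 120 days (log2 change -1.53, SE 0.16, adjusted p = 7.56e-04). On this probe set the log2 change was -0.31 up to 60 days and -1.23 after. The 2 other probe sets of FNTA gave -0.04 and 0.11 and were not called. TFRC, the transferrin receptor that imports iron, read 715, 578 and 379 and then 34.1, 73.7 and 193 (log2 change -2.44, SE 0.49, adjusted p = 0.0177). AHSP and HBM, defining genes of red cell precursors, had log2 changes of -1.16 and -0.38 without passing the test, HBB one of 0.18, and the summed level of the 9 erythroid and iron genes was 8069.6 to 9866 at 3 days and 6339 to 6963 at 120 days. Their part in the TFRC fall was not tested.

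GLRX, a glutaredoxin that reverses glutathione adducts, went from 784 ± 185 to 141 ± 27.4 (log2 change -2.30), and its second probe set fell by 1.82. DDAH1, which degrades an inhibitor of nitric oxide synthase, went from 346 ± 116 to 52.8 ± 15.3, and NME1, a nucleoside diphosphate kinase, from 529 ± 179 to 99.7 ± 31.6 (SD, n = 3). ACOT6, an acyl-CoA thioesterase, went from 1118 ± 164 to 214 ± 45.8 (log2 change -2.29, adjusted p = 0.00149), while a second probe set gave 0.31. The calls on ZNF385D, DNAJA4, FNTA, DDAH1 and ACOT6 held without any 1 array. That on TFRC was lost without replicates 1 or 2 of either age (adjusted p 0.0596 to 0.0866), that on GLRX without 3-day replicate 1 or 120-day replicate 2 (0.0517 and 0.0638), and that on NME1 without 120-day replicate 2 (0.0507).

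IGF2 and 2 genes of the imprinted and fetal growth list, PEG10 and PLAGL1, fell between 3 and 120 days. IGF2, the fetal insulin-like growth factor, read 772, 1768 and 1525 at 3 days and 336, 305 and 211 at 120 days (4.77-fold, log2 change -2.12, SE 0.29, adjusted p = 0.00314). Of the 10 further IGF2 probe sets, 7 were called lower. PEG10, an imprinted gene derived from a retrotransposon, read 302, 427 and 251 and then 34.7, 52.9 and 25 (log2 change -2.57, adjusted p = 0.00305). PLAGL1, an imprinted zinc-finger factor, read 98.4, 90.0 and 104 and then 43.1, 40.6 and 28.5 (log2 change -1.03, adjusted p = 0.0163), though its 2 other probe sets lay between -0.11 and 0.04. The ages did not overlap for any of the 3, as was so for every called probe set.

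The imprinted and fetal growth list did not hold IGF2, which was counted in the insulin-like growth factor axis. Of its 9 measured genes, PEG10 and PLAGL1 fell (22.2%, where 2.79% of all genes fell). In that list 8 had a negative change and the median was -0.57, where all genes had -0.03. In the insulin-like growth factor axis IGF2 was the 1 called of 13 genes (7.69%, where 4.79% of all genes were called, median 0.10). IGF1, the postnatal growth factor, averaged 92.2 ± 11.2 and 103 ± 10.4 on the probe set that stands for it. Of its 2 other probe sets one was called lower (log2 change -0.91, SE 0.19, adjusted p = 0.0189) and one was not (-0.04). GHR, the growth hormone receptor, had a log2 change of 0.56 (adjusted p = 0.339). The calls on IGF2 and PEG10 held without any 1 array, and that on PLAGL1 was lost without 3-day replicate 1 or any 120-day array (adjusted p 0.0543 to 0.0609).

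Of the 13 myogenic regulators and satellite cell genes, MEF2A alone passed (7.69%, where 4.79% of all genes were called). It lay at the edge of the threshold (255, 277 and 243 at 3 days, 585, 484 and 355 at 120 days, log2 change 0.80, SE 0.21, adjusted p = 0.050). That call was lost without any of 8 arrays, among them all 3 of 3 days, with adjusted p up to 0.218 without 120-day replicate 1, and also with median or hybridization-control centring. MSTN, the growth inhibitor myostatin, read 80.6, 65.1 and 14.6 and then 238, 248 and 282, without overlap, but did not pass (log2 change 2.03, SE 0.59, adjusted p = 0.0764). MYOD1, the determination factor, averaged 163 ± 50.5 and 135 ± 31.4.

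Genes of fatty acid uptake and oxidation that passed the test were all lower at 120 days. Of 28 measured genes of fatty acid uptake and oxidation, 8 were lower and 0 higher (28.6% called, where 2.79% of all genes were lower), 24 had a negative change, and the median was -0.49. CPT1B, the muscle carnitine palmitoyltransferase that admits long-chain fatty acids to mitochondria, read 646, 739 and 700.1 at 3 days and 134, 112 and 158 at 120 days (5.16-fold, log2 change -2.21, SE 0.26, adjusted p = 0.00145). ACADL, the long-chain acyl-CoA dehydrogenase, read 836, 951 and 941 and then 347, 275 and 342 (log2 change -1.45, adjusted p = 0.00695). ACOT7, an acyl-CoA thioesterase, read 119, 90.2 and 168 and then 11.9, 13.8 and 14.5 (log2 change -2.06, adjusted p = 4.62e-04). In all 3 the ages were far apart.

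FABP3, the muscle fatty acid carrier, read 3799, 3132 and 3323 and then 1046, 1251 and 1689 (log2 change -1.37, adjusted p = 0.0450). The remaining calls were ACADVL (log2 change -1.17), HADHA (-0.99), ECI1 (-0.94) and ECI2 (-1.06), which act in the beta-oxidation spiral or on unsaturated chains. Several steps of the same pathway did not pass, among them ACADM, the medium-chain dehydrogenase, at 0.07, HADH at -0.08, CPT2 at -0.21 and HADHB at -0.81 (adjusted p 0.0734 to 0.901). PDK4, which holds pyruvate out of the citric acid cycle, averaged 3641 ± 1339 and 2594 ± 888 (log2 change -0.48, adjusted p = 0.650), and UCP3 138 ± 30.0 and 182 ± 60.0.

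The calls on CPT1B, ACADL and ACOT7 held without any 1 array. The number of calls in the list was 4 without any 1 of the 3-day arrays, and 3, 3 and 5 without replicates 1, 2 and 3 of 120 days. FABP3 lost its call without any 1 of the 6 arrays or 60-day replicate 3 (adjusted p 0.0519 to 0.189), and also with quantile normalization.

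Respiratory chain genes were called about as often as genes in general, and their levels were uneven between animals. Of 59 oxidative phosphorylation genes, 2 fell, both complex I subunits, and 0 rose (3.39%, where 2.79% of all genes fell), 51 had a negative change, and the median was -0.27. NDUFV1 read 992, 1236 and 943 and then 484, 467 and 675, and NDUFA10 read 838, 1047 and 867 and then 443, 469 and 562 (adjusted p = 0.0365 and 0.0224). The summed level of the 59 was 149176, 152551 and 123827 at 3 days and 107735, 108575 and 141831 at 120 days, so the ages overlapped. Replicate 3 was the highest 120-day array for 55 of the 59 (93.2%, where it was so for 41.4% of all genes) and the lowest 3-day array for 47. NDUFV1 and NDUFA10 lost their calls without replicates 1 or 2 of either age, and NDUFV1 also without 3-day replicate 3 (adjusted p 0.0536 to 0.162).

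In the citric acid cycle and pyruvate dehydrogenase list, 0 of 24 passed the limma test, where 4.79% of all genes did. The median was -0.33, and 18 were negative. CS, citrate synthase, read 2269.9, 2338 and 1992 and then 1183, 1229 and 2152, and PDHA1 read 1464, 1471 and 1271 and then 536, 584 and 1314. In both, 2 of the 120-day arrays were low and the third was near the 3-day level.

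The glycolytic and glycogen list had a positive median. Of 28 measured, BPGM rose and PFKL, the liver-type phosphofructokinase, fell from 136 ± 54.2 to 63.0 ± 6.25 (log2 change -0.85, adjusted p = 0.0343). These 2 calls were 7.14% of the list, where 4.79% of all genes were called. The median was 0.33, 18 were positive, and 22 had ages that did not overlap (33.8% of all genes did not). PFKM, the muscle phosphofructokinase, read 3635, 2874 and 2045 at 3 days and 4558, 4769.7 and 5245 at 120 days, and PYGM, the muscle glycogen phosphorylase, read 5079.5, 3951 and 2489 and then 7363, 7096 and 6627 (adjusted p = 0.187 and 0.0555). Of 3 other PYGM probe sets 2 were called higher, with log2 changes of 1.28 and 1.4. FBP2, the muscle fructose bisphosphatase, read 1419.7, 1033 and 276 and then 2993, 2176 and 2397 (log2 change 1.72, adjusted p = 0.0530). In these 3 genes the third 3-day array was the lowest of all 6, as it was the lowest of its age for 19 of the 28.

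LDHA, the muscle lactate dehydrogenase subunit, had a log2 change of 0.37, and LDHB, the heart subunit, one of -0.76 (2013, 2378 and 1877, then 983, 1345 and 1356, adjusted p = 0.0997). SLC2A4, the insulin-responsive glucose transporter, read 117, 109 and 108 and then 63.8, 69.5 and 87.8, without overlap (log2 change -0.49, adjusted p = 0.0655), while its second probe set gave 0.52 (adjusted p = 0.315). PFKL lost its call without replicates 1 or 3 of 3 days or any 120-day array (adjusted p 0.0562 to 0.149). With only the 6 compared arrays in the fit, 7 of the 28 rose, where 4.67% of all genes rose, and 2 fell. PFKL was not called in that fit.

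CKM and CKMT2, the cytosolic and mitochondrial creatine kinases, averaged 8762 ± 117 and 8988 ± 88.4, and 2672 ± 943 and 2772 ± 1084, with log2 changes of 0.04 and 0.05. PPARGC1A, a coactivator of mitochondrial genes, averaged 164 ± 88.2 and 174 ± 109.8. None of the 3 passed the test.

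**Figure D3:**
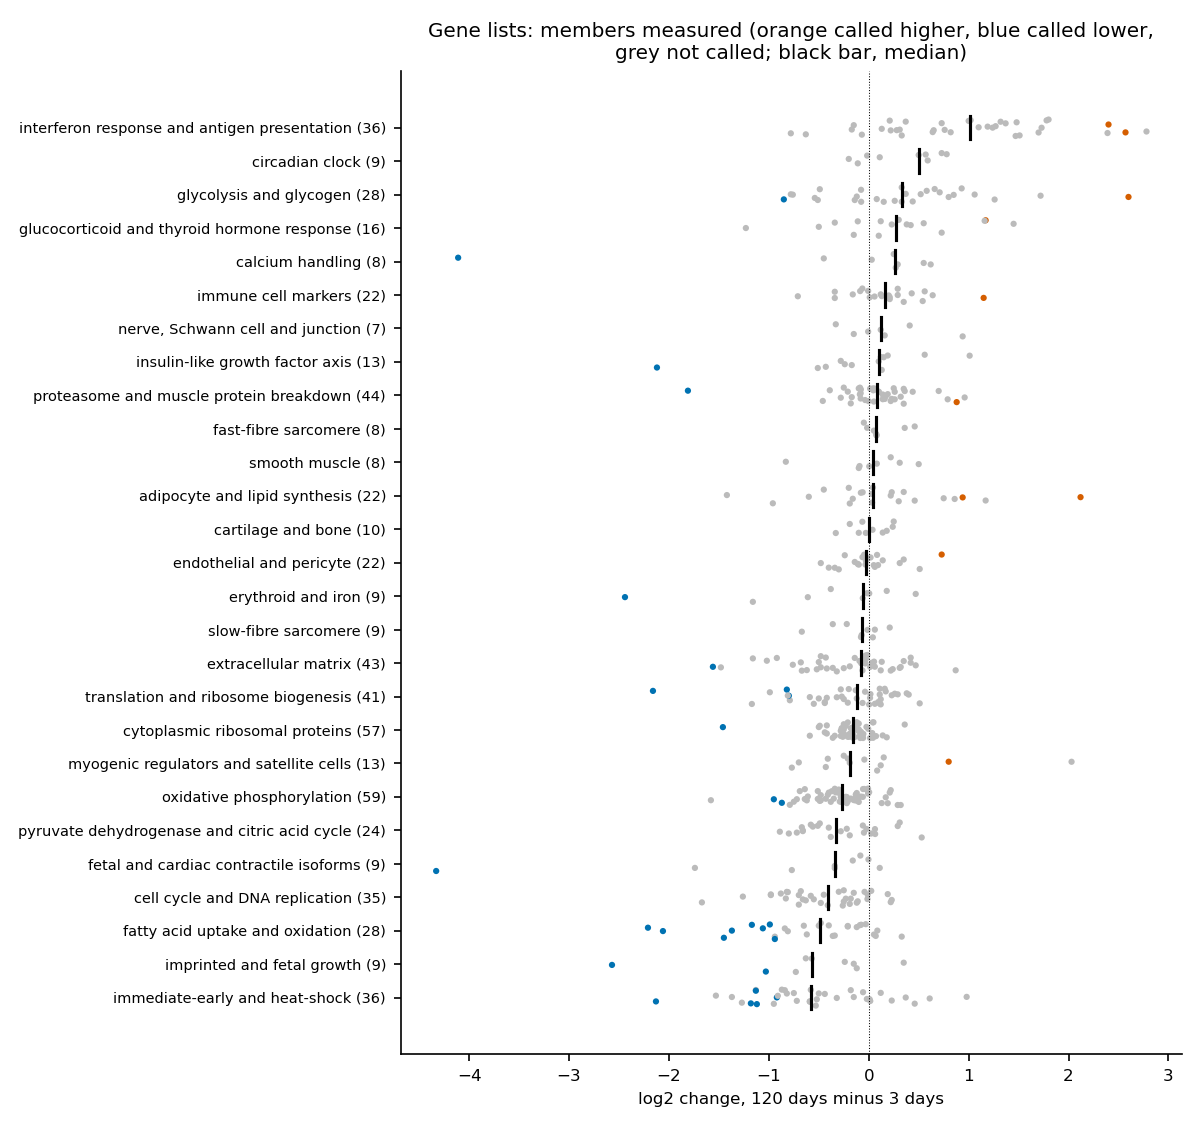
Log2 change from 3 to 120 days of every measured member of 27 gene lists, with the number measured in brackets; orange points were called higher, blue called lower, grey not called, and black bars are medians. The lists run from the interferon genes (median 1.01) to the immediate-early and heat-shock genes (median -0.58), and fatty acid uptake and oxidation has 8 blue points.

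Chaperones made up the falls among stress genes. Of 36 immediate-early and heat-shock genes 5 fell and 0 rose (13.9%, where 2.79% of all genes fell), and the median was -0.58. The 5 are all chaperones: HSPH1 (2859, 1039.8 and 2024 at 3 days, 325, 533 and 364 at 120 days, log2 change -2.13), HSPD1 and HSPA9 of the mitochondrial matrix (-1.18 and -1.13), and HSP90AB1 and HSP90AA1 of the cytosol (-1.12 and -0.92). Of 4 other HSP90AA1 probe sets 1 was called lower (-1.48) and 3 were not (-0.63 to -0.13). HSPD1 read 3109, 2037 and 2915 and then 1164, 1080.3 and 1232, and HSP90AB1 read 3062, 2402 and 4089 and then 1468, 1429 and 1372. All 5 had 3-day arrays above all 120-day arrays, as did every probe set called lower. Immediate-early genes such as FOS, JUN and DUSP1 had log2 changes of 0.37, 0.46 and 0.23 and did not pass.

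These calls were sensitive to single arrays. The list had 1, 6 and 2 falls without replicates 1, 2 and 3 of 3 days, and 0, 1 and 2 without those of 120 days. It had 8 without 60-day replicates 1 or 2 or fetal replicate 3, and 3 without fetal replicate 1. With hybridization-control centring 11 fell, and with only the 6 compared arrays 14 fell. Falls over all probe sets numbered 582 and 752 in those 2 settings, against 343 in the main fit.

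Of 57 cytoplasmic ribosomal protein genes, RPL3 alone was called (1.75%, where 4.79% of all genes were called). It fell from 1611, 1828 and 2895 to 811, 700.3 and 688 (log2 change -1.46, SE 0.22, adjusted p = 0.00449), a call that held without any 1 array. The list median was -0.16, 48 were negative, and 31 had ages that did not overlap (33.8% of all genes). Of 41 translation and ribosome biogenesis genes 3 fell and 0 rose (2.79% of all genes fell, list median -0.12): NME1, the helicase gene EIF4A1 (449 ± 19.3 and 251 ± 62.7) and DKC1, the dyskerin of ribosomal RNA modification (154 ± 41.7 and 78.0 ± 7.08), whose second probe set gave -0.39. Without 1 of the 6 compared arrays the list had 0 to 2 falls, with 0 without 120-day replicate 2. EIF4A1 lost its call without any 1 of 8 arrays (adjusted p 0.0558 to 0.149) and with median centring, and DKC1 without 3-day replicate 3 or any 120-day array (0.0617 to 0.0884).

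Of 35 cell cycle and DNA replication genes 31 had a negative change and the median was -0.41. By the limma test 0 passed, where 4.79% of all genes did. Ages did not overlap for 16 of the 35 (33.8% of all genes did not). The summed level of the list was 8846, 6913 and 9768 at 3 days and 5450.0, 4855 and 4716 at 120 days, without overlap. The proliferation markers TOP2A and UBE2C were scattered at 3 days. TOP2A read 141, 100.2 and 20.0 and then 28.3, 33.4 and 33.9, and UBE2C read 147, 95.8 and 52.0 and then 35.2, 33.6 and 40.2. Without 3-day replicate 3, the array that stood apart, 6 of the 35 fell. With only the 6 compared arrays in the fit 6 fell, with hybridization-control centring 4, and without 60-day replicate 1 or 2, 3 and 2. Falls over all probe sets numbered 343 in the main fit and 255 without 3-day replicate 3. They numbered 752 with the 6 compared arrays, 582 with hybridization-control centring, and 387 and 397 without 60-day replicates 1 and 2.

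Of 43 extracellular matrix genes, SERPINH1, the chaperone that folds collagen, was the 1 call (2.33%, where 4.79% of all genes were called). It fell from 770.0, 467 and 865 to 202, 242 and 207 (log2 change -1.56, SE 0.32, adjusted p = 0.0202). The list median was -0.08. COL3A1, a fibrillar collagen, averaged 56.8 ± 18.3 and 79.1 ± 29.8. The SERPINH1 call was lost without replicates 1 or 3 of 3 days or any 120-day array (adjusted p 0.0595 to 0.0908).

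In the list of 44 proteasome and muscle protein breakdown genes 1 rose and 1 fell (4.55% called, where 4.79% of all genes were). TP53INP2, which acts in autophagy, read 979.8, 796 and 581 and then 100.2, 231 and 352 (log2 change -1.81, SE 0.37, adjusted p = 0.0197). CAPN3, the muscle calpain, read 684, 689.6 and 619 and then 1434, 1130.2 and 1162 (log2 change 0.88, SE 0.20, adjusted p = 0.0318), with a second probe set at 0.44. FBXO32 had no stable change, at 26.4, 61.2 and 2378 and then 137, 171 and 388, since 1 array holds most of its signal at 3 days. CAPN3 lost its call without any 1 of the 6 arrays (adjusted p 0.0680 to 0.158) and with hybridization-control centring, and TP53INP2 without replicates 1 or 2 of either age (0.0651 to 0.0751).

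Interferon-response and antigen-presentation genes had a median of 1.01. Of 36 measured, 31 had a positive change and 29 had ages that did not overlap (33.8% of all genes), yet 2 rose and 0 fell by the test (5.56%, where 1.99% of all genes rose). RSAD2, the antiviral protein viperin, read 15.7, 20.1 and 16.1 at 3 days and 115, 134 and 536 at 120 days (log2 change 2.57, SE 0.48, adjusted p = 0.0120). OAS1, which senses double-stranded RNA, read 25.8, 98.5 and 54.9 and then 311, 261 and 649 (log2 change 2.40, SE 0.50, adjusted p = 0.0212). For both, all 120-day arrays were above all 3-day arrays, as the naming rule required, and replicate 3 was the highest.

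ISG15, a ubiquitin-like modifier, read 39.0, 60.5 and 51.8 and then 270.0, 258 and 1406 (log2 change 2.78, SE 0.90, adjusted p = 0.108). Among class II antigen-presentation genes, SLA-DRA read 153, 251 and 102 and then 514, 388 and 1048, and CD74, the invariant chain, read 116, 118 and 69.2 and then 208, 227 and 453 (adjusted p = 0.324 and 0.460). Class II genes of pigs are close in sequence, and the probe sets may not tell them apart.

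Single arrays weigh on these values. Replicate 3 was the highest 120-day array for 31 of the 36 genes (86.1%, where it was so for 41.4% of all genes). The summed level of the list was 8014, 9038 and 8468 at 3 days and 12282, 11563 and 19033 at 120 days. Fetal replicate 3, with a sum of 36726 against 6281 and 5819 on the other fetal arrays, enters the shared estimate of spread. Without fetal replicate 3 the list had 16 rises, where rises over all probe sets numbered 453, against 371 in the main fit. With only the 6 compared arrays in the fit it had 19 rises and 1 fall, where 4.67% of all genes rose.

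Without 120-day replicate 3 it had 1 rise, as it did without 120-day replicate 1, 3-day replicate 1 or 3-day replicate 3. The call on RSAD2 held without any 1 array. That on OAS1 was lost without replicates 1 or 3 of either age (adjusted p 0.0517 to 0.0836).

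Markers of immune cells were read on the same arrays. Of 22 measured, JCHAIN, the joining chain of secreted immunoglobulins, alone was called (4.55%, where 4.79% of all genes were called). It rose from 69.6, 80.5 and 63.0 to 176, 144 and 241 (log2 change 1.15, SE 0.20, adjusted p = 0.00907, held without any 1 array). The median of the list was 0.16, with 15 changes positive and 7 negative. Its summed level was 1842 to 2906 at 3 days and 1827 to 3942 at 120 days, with overlap. Replicate 3 was the highest 120-day array for 18 of the 22 (81.8%, where it was so for 41.4% of all genes). TYROBP and LAPTM5, of myeloid and lymphoid cells, read 37.2 to 67.7 and 82.0 to 135 at 3 days, and 70.4 to 104 and 106 to 220.4 at 120 days. The part of immune cells in the interferon values was not tested.

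**Figure D4:**
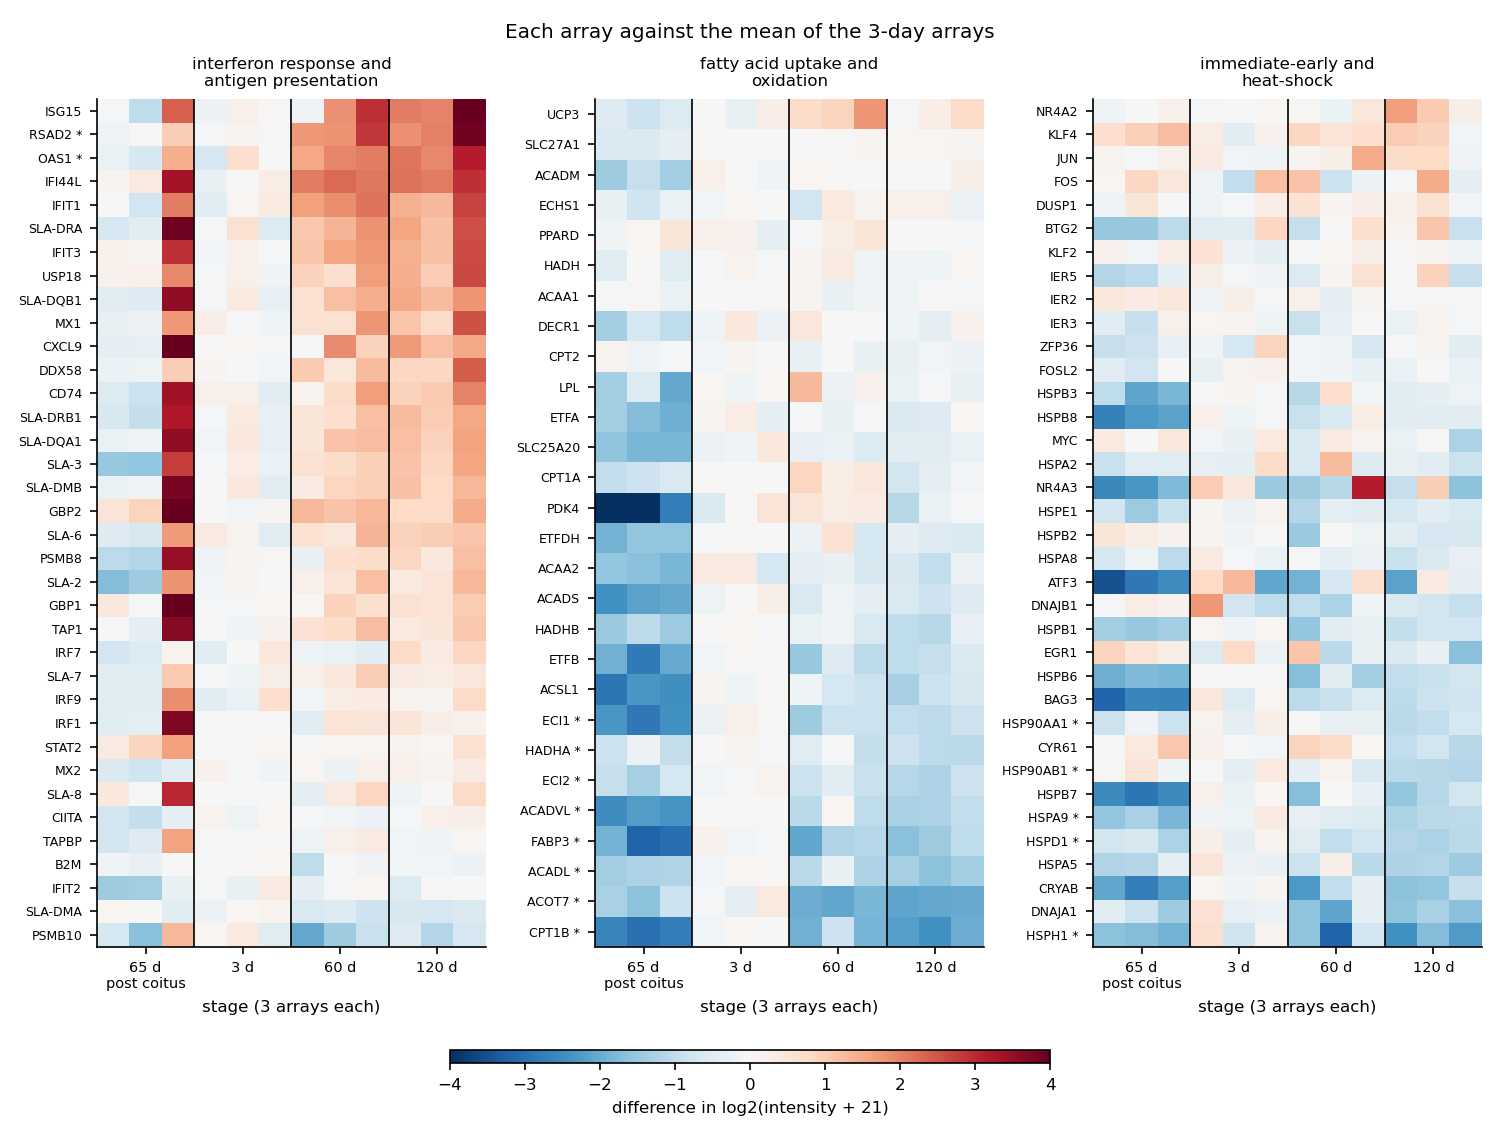
Each cell is the difference in log2(intensity + 21) between 1 array and the mean of the 3-day arrays, for 3 gene lists (rows sorted by change, called genes starred) over 12 arrays in 4 stages. Many interferon genes are red in the third fetal array and in the 120-day arrays, while the starred fatty acid genes are blue in all 3 arrays of 120 days.

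Of 16 glucocorticoid and thyroid hormone response genes NR3C1, the glucocorticoid receptor, alone was called (6.25%, where 4.79% of all genes were called). It rose from 91.2, 132 and 138 to 338, 352 and 211 (log2 change 1.17, SE 0.25, adjusted p = 0.0241). Further probe sets of NR3C1 numbered 3, of which 2 were called higher. Its target KLF9 averaged 739 ± 131 and 582 ± 119.8 (log2 change -0.34, adjusted p = 0.531). FKBP5, another target, read 356, 589.7 and 1129 and then 651, 852 and 825. The NR3C1 call was lost without replicates 1 or 2 of either age (adjusted p 0.0621 to 0.120). Of 9 circadian clock genes 0 passed the limma test, where 4.79% of all genes did, with a median of 0.50.

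Adipocyte and lipid synthesis genes were mixed, with 2 of 22 higher (1.99% of all genes rose) and a median of 0.04. They were ME1 and CIDEA, a lipid droplet protein, at 16.1, 25.6 and 19.9 and then 58.1, 55.5 and 61.2 (log2 change 0.94, SE 0.20, adjusted p = 0.0226). ADIPOQ, the defining adipocyte hormone, averaged 12.9 ± 2.74 and then read 78.6, 25.1 and 75.1, without overlap but with an adjusted p of 0.252. FABP4 averaged 832 ± 415 and 898 ± 174, LEP 53.4 ± 12.6 and 45.1 ± 1.45, and SCD, the stearoyl-CoA desaturase, read 350.2, 256 and 78.4 and then 86.4, 103 and 84.3. The summed level of the list was 3935 to 5977 and 4518 to 5559.5, with overlap. CIDEA lost its call with hybridization-control centring, and without replicates 1 or 3 of 3 days or any 120-day array (adjusted p 0.0575 to 0.0875), and ME1 lost its call without 120-day replicate 1 (0.0532).

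Of 22 endothelial and pericyte genes VEGFA, the main vessel growth factor, alone passed (4.55%, where 4.79% of all genes were called). It read 621, 633 and 721 and then 1079, 1128 and 1095 (log2 change 0.73, SE 0.16, adjusted p = 0.0259). PECAM1 and CDH5, which define endothelium, had log2 changes of -0.40 and 0.05 and did not pass. VEGFA lost its call without replicates 1 or 2 of 3 days or any 120-day array (adjusted p 0.0706 to 0.122) and with hybridization-control centring, and its 3 other probe sets lay between -0.63 and -0.04. Of 8 smooth muscle, 7 nerve and junction and 10 cartilage and bone genes 0 passed the limma test, where 4.79% of all genes did. Their medians were 0.04, 0.12 and 0.00. FMO1, a flavin monooxygenase, rose to 404 ± 46.7 at 60 days from 127 ± 31.2 at 3 days (log2 change 1.53, adjusted p = 0.00263), and at 120 days stood at 214 ± 38.0 (adjusted p = 0.0593 against 3 days).

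The values at 60 days and in the fetus place these changes in time. In order of age from the fetus on, the stage means of CPT1B were 83.0, 695, 241 and 135, and those of TFRC 40.8, 557, 70.2 and 100.1, so both stood highest at 3 days. ZNF385D took the same shape, at 72.8, 478, 72.3 and 40.1. By contrast PEG10 went from 3319 in the fetus to 327, 87.6 and 37.5, and IGF2 from 2494 to 1355, 299.7 and 284. IGF2 was at its 120-day level by 60 days, with a log2 change of -2.02 up to 60 days and -0.09 after.

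ACTC1 stayed high until 3 days, with 7306 in the fetus and 5117 at 3 days, and then read 646 and 219. NR3C1 was high in the fetus at 405, low at 3 days at 120.4 and higher again at 328 and 300.5. MSS51 stood at 63.8 and 109 before rising to 1016 ± 641 and 1702 ± 116, where 60-day replicate 2, at 284, was far under the other 60-day arrays. The same 60-day array was low for BPGM, at 337 beside 1263 and 1068.

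**Figure D5:**
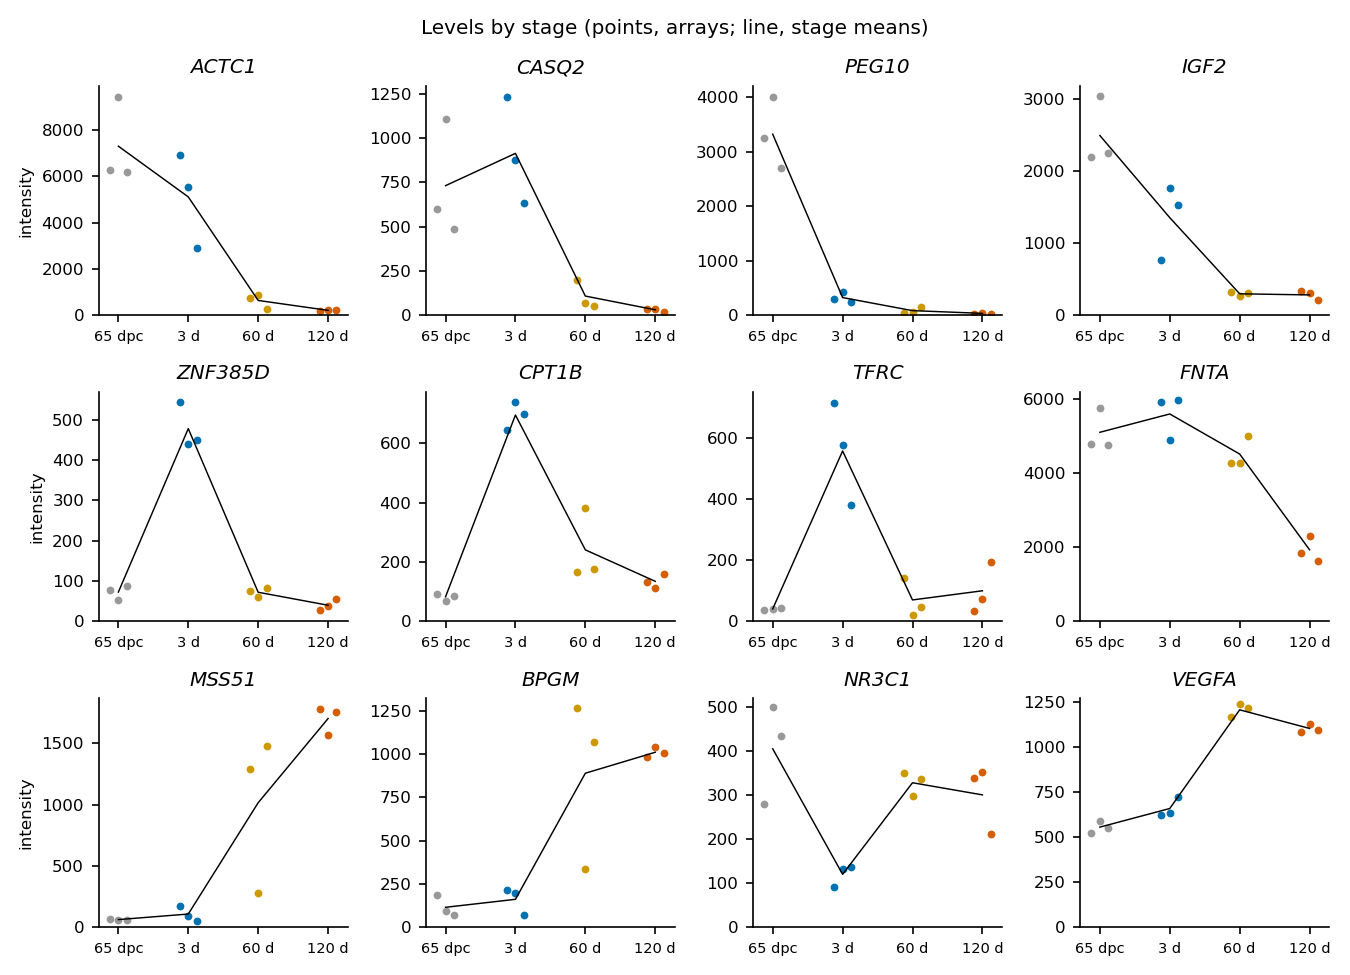
Intensity (linear axis from 0) of 12 genes in 4 stages, with points for arrays and a line through stage means. ZNF385D, CPT1B and TFRC peak at 3 days, PEG10 and IGF2 run down from the fetus, and BPGM and MSS51 are low until 3 days.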

How the data were processed

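Affymetrix porcine arrays were hybridised with biotinylated cRNA, 1 array per muscle sample, per the labels' protocols. Per the submitters' processing notes, the authors used GCOS 1.4, and what they deposited is a linear intensity per probe set and array. How probes were summarised and to what target arrays were scaled is not given in the sources used here, and array medians of 49.1 to 52.6 led to no further scaling. After 124 control probe sets were set aside, 23999 remained, of which 16166 (67.4%) exceeded the 40th percentile of their array on at least 3 arrays. The pseudocount of 21 is near the 25th percentile of all values (21.4), so log2 changes understate those of dim genes. All 12 arrays entered a limma 3.58.1 fit (R 4.3.3) with a mean for each of the 4 stages and a trended variance (8 residual, 4.26 prior degrees of freedom). Symbols came from a 2016 platform annotation, with 10069 probe sets given 1 symbol, 198 several and 13732 not listed. The brightest probe set stood for a gene. Replicate error is that between 3 samples of an age, and array number limits precision.

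Named genes were the 12 largest called rises and falls without overlap between ages and with a higher mean of at least 99.4, up to 4 called members per list and any called against its list, 45 fixed genes (34 measured), and the 5 smallest p. ACADVL, HADHA, ECI1, ECI2, HSP90AA1 and further list members were named after their values were seen. The comparison, the 28 lists (975 members, 649 matched, 618 measured) and the rule were chosen with earlier results of these data known. Same-numbered arrays of the 2 ages had correlated deviations of 0.0027, 0.0895 and 0.122, so numbers were not taken as pairs. The fit was tested on simulated data. Python 3.11.15, NumPy 2.4.6, pandas 2.3.3 and matplotlib 3.10.9 made tables and plots.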

Additional observations from a re-analysis of the deposited data

How the results depend on the processing

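Of the 47 called genes picked by the naming rule, 17 kept their call in all of 27 settings. None changed direction, but leaving out arrays could not have reversed one, since the ages did not overlap for any called probe set. Against 714 probe sets (371 higher, 343 lower), 38 list genes, 8 fatty acid genes lower, 5 heat-shock genes lower and 2 interferon genes higher, array weights gave 4756 (2401 and 2355), 224, 17, 15 and 11. Only the 6 compared arrays gave 1525 (773 and 752), 103, 10, 14 and 19. Centring on the hybridization controls gave 187 higher and 582 lower and 11 heat-shock genes. With the replicate number as a block, 556 were called and 7 interferon genes were higher; the same numbers did not pair the arrays, and 6 named calls were lost. At least 2-fold left 337 calls and 1 probe set per gene 286. Leaving out the third array of 3 and 120 days, an alternative chosen after seeing the data, gave 323 (152 and 171), 23, 4, 0 and 1, and leaving it out of 60 days as well gave 282 (134 and 148), 18, 3, 0 and 1. Without 1 array, counts ranged from 184 to 873 probe sets, 97 to 459 higher, 87 to 420 lower, 11 to 61 list genes, 3 to 9 fatty acid genes, 0 to 8 heat-shock genes and 1 to 16 interferon genes. Without fetal replicate 2 and 60-day replicate 1 together they were 1166 (582 and 584), 77, 11, 11 and 3. The causes were not tested. Pseudocounts of 1 and 51, no filter or a 60th percentile filter, quantile normalization, median centring and the other variance models kept the count of probe sets within 1.5 times, from 601 to 833. Of 24 named genes not called, 9 were called in some setting. Precision is limited by 3 arrays an age, and for dim genes also by signal near background.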

Other observations

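Of 7 further gene families, put together after their values were seen and so given no test of their own, 6 had a negative median. The other, of 9 class II major histocompatibility genes, had a median of 1.24 with 8 positive, and 0 passed the limma test (4.79% of all genes did). Its ages did not overlap for 7 of the 9 (33.8% of all genes did not). With only the 6 compared arrays in the fit, 6 of the 9 rose and 1 fell, where 4.67% of all genes rose. Adjusted p-values of single members are those of the fit over all probe sets. Of 25 endoplasmic reticulum chaperones and folding enzymes, counting the transcription factor XBP1, 9 fell and 0 rose (36.0%, where 2.79% of all genes fell). Of the 25, 24 were negative, and the median log2 change was -0.75. XBP1 and SERPINH1 are among the 9, and SERPINH1 was already counted in the extracellular matrix list. HSP90B1, the reticulum's HSP90, read 2267, 1407 and 2393 at 3 days and 539, 583 and 599.9 at 120 days (log2 change -1.74, SE 0.26, limma adjusted p = 0.00401). PDIA4, a disulfide isomerase, read 762, 464 and 909 and then 193, 182 and 200.4, and HYOU1, a reticulum HSP70, read 381, 309.8 and 479 and then 124, 124 and 150.1. XBP1, a transcription factor of the unfolded protein response, read 1278, 1071 and 1402 and then 647, 629.6 and 594 (log2 change -0.97). Of 6 measured subunits of the cytosolic chaperonin, which folds actin and tubulin, 3 fell (CCT7, TCP1 and CCT8, -1.10, -0.91 and -0.88) and all 6 had ages that did not overlap (33.8% of all genes did not). Counts of falls without 1 of the 6 compared arrays were 1 to 4 for the reticulum family, lowest without 120-day replicate 1, and 0 to 3 for the chaperonin, with 0 without any 1 of the 120-day arrays.

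Among 22 aminoacyl-tRNA synthetases and their scaffold proteins, which load amino acids for translation, 7 fell and 0 rose (31.8%, where 2.79% of all genes fell, median -0.67). AIMP2, a scaffold protein, read 629, 365 and 503 and then 183, 158 and 205 (log2 change -1.33), and FARS2, the mitochondrial phenylalanine enzyme, 126, 149 and 132 and then 67.9, 60.0 and 66.5 (log2 change -0.87, adjusted p = 0.00449). Of 57 mitochondrial ribosomal protein genes 4 fell (7.02%, where 2.79% of all genes fell), 47 were negative and 39 had ages that did not overlap (33.8% of all genes), with a median of -0.40. Of 18 mitochondrial import genes 2 fell, TIMM44 and TIMM50 (11.1%, where 2.79% of all genes fell), with a median of -0.25. Without 1 of the 6 compared arrays, 1 to 3 synthetase genes and 1 to 3 mitochondrial ribosomal genes fell, with 1 of each without 3-day replicate 1 or 120-day replicates 1 or 2, and 0 to 2 import genes.

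In cholesterol synthesis and its control, 5 of 15 genes fell and 1 rose (33.3% lower, where 2.79% of all genes fell, median -0.84). SREBF2, the controlling transcription factor, read 481, 353 and 251 at 3 days and 123, 139 and 124 at 120 days (log2 change -1.31, adjusted p = 0.0371), though its second probe set gave 0.13. INSIG1, which holds that factor in check, read 418, 253 and 122 and then 59.0, 82.5 and 81.5 (log2 change -1.45, adjusted p = 0.0402). INSIG2 was the rise, from 55.2, 85.0 and 83.5 to 136, 122 and 126, and it lost its call with hybridization-control centring. For both SREBF2 and INSIG1 the third 3-day array was the nearest to the 120-day level. Without that array 8 of the 15 fell, and without 3-day replicate 1 or 120-day replicates 1 or 2, 0 fell.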
